A study of Mus musculus with 20 samples.

Results

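Fibroblast-only H3K4me1 regions are stretches of the mouse genome, away from H3K4me3, that carried histone H3 lysine 4 monomethylation (H3K4me1) in mouse embryonic fibroblasts (MEFs) and little of it in embryonic stem (ES) cells or liver. They were chosen by measured values in bins of 1 kb on chromosomes 1 to 19. A bin was distal where H3K4me3 stood under 1.5 RPM (reads per 1000000 distinct reads) in ES cells and in liver, in the bin and in both its neighbours. A distal bin was kept where MEF H3K4me1 reached 2 RPM and at least 2 times the sum of MEF histone H3 and 0.1 RPM, while H3K4me1 stayed under 0.8 RPM in the mean of the ES libraries and in liver. Kept bins within 1 kb of each other were joined. This gave 29691 bins in 19632 regions, out of 85241 distal regions marked by H3K4me1 in ES cells, liver or MEFs.

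H3K4me1 is laid down at enhancers, the distal stretches of DNA from which bound factors raise the transcription of a gene, and it marks both active enhancers and those held inactive. Acetylation of histone H3 lysine 27 (H3K27ac) is found at enhancers and promoters in use, and H3K4me3 at promoters. Enhancer marks differ more between cell types than promoter marks do, and in reprogramming a fibroblast loses the enhancer marks of its origin and gains those of a pluripotent cell.

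The series holds 20 libraries of ChIP-seq, the sequencing of DNA recovered with an antibody to a histone mark or protein, in 16 groups. Per the labels, MEFs were kept in ordinary fibroblast culture, and 1 H3K4me1 and 1 H3 library were made from them. The induced pluripotent stem (iPS) cells were a single line, O6, obtained from MEFs, grown on irradiated MEF feeder cells and then for 2 passages without feeders before fixing, and they gave 1 H3K4me1 library. Neural progenitor cells (NPCs), 129JAE-C57/B6 derived, were grown through embryoid bodies and then expanded with FGF and EGF, and they gave 1 H3K27ac library and 1 library of the DNA-binding protein Rfx1. ES cells gave 3 H3K4me1 libraries. The first was from the hybrid V6.5 line, 129JAE-C57/B6 in the titles, after 2 passages off feeders. The second was from V6.5 cells carrying an inducible 4F2A reprogramming transgene and the third from the inbred C57BL/6 line j21, each after 1 passage. V6.5 cells also gave 2 H3K27ac and 2 p300 libraries and 1 each of H3, H3K4me3 and whole cell extract (WCE), the H3K27ac, H3 and H3K4me3 cells after 1 passage off feeders and the p300 and WCE cells after 2, and perfused whole liver, a mixture of cell types, gave H3K4me1, H3K27ac, H3K4me3, H3 and WCE. Where nothing says that ES libraries came from separate cultures, their spread may be partly technical.

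Distinct reads ran from 0.705 M (M for 1000000 reads) for Rfx1, where 72.5% of reads repeated a position, to 14.5 M for MEF H3K4me1. The iPS library held 2.32 M distinct reads, against 6.27 to 10.1 M in the ES H3K4me1 libraries, so that 1 iPS read in a bin was worth 0.431 RPM. The NPC H3K27ac library held 6.94 M. ES H3K4me3, which helped to set what was distal, held 2.37 M, and 70% of its reads repeated a position. No ES H3K4me3 read lay in 57.9% of the member bins. MEF, iPS and NPC libraries have no replicate, and comparisons with them carry no replicate check. Intervals below cover counting error only, since reads were amplified by PCR without molecular identifiers and neighbouring bins are not independent. No genome or annotation of the files' build was at hand, so genes, exons and fibroblast marker genes were not looked up, and a promoter used in MEFs or NPCs but in neither ES cells nor liver can be among the regions.

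Most fibroblast-only regions were small. Of the 19632 regions, 68.1% were 1 kb wide, 18.1% were 2 kb, 7.43% were 3 kb and 4.63% were 4 to 5 kb, while 303 regions spanned 6 to 9 kb and 41 spanned 10 to 22 kb. Neighbouring regions were a median of 27 kb apart, 29.1% of the gaps were 10 kb or less and 4.22% were over 500 kb. The member bins made up 36.4% of the 81476 distal bins marked in MEFs. The other MEF-marked bins failed the limit on ES cells alone (19.6%), on liver alone (17.1%) or on both (26.8%). Such a bin lay within 2 kb of 6397 regions (32.6%), so these regions did not stand apart from other MEF-marked chromatin. Averaged over whole chromosomes, there were 6.37 regions per Mb on chromosome 14, the fewest, and 9.22 on chromosome 13, the most.

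The regions were far from H3K4me3. The nearest bin with at least 5 RPM of H3K4me3 in ES cells or liver was a median of 55 kb away, and 7.08% of the regions had one within 5 kb. In 3 sets of regions cut in the same way, that distance was shorter. These sets were 3971 regions marked in both MEFs and liver and not in ES cells (median 28 kb, 13.6% within 5 kb), 16572 liver-only regions (26 kb, 16.7%) and 18744 ES-only regions (23 kb, 18.4%). H3K4me3 was measured in ES cells and liver only, so promoters of fibroblasts were not seen, and the part of that in the longer distance was not tested.

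In MEFs, which chose the regions, H3K4me1 averaged 3.82 RPM per member bin and H3 0.671 RPM. In ES cells the 3 H3K4me1 libraries averaged 0.323, 0.320 and 0.299 RPM (0.314 ± 0.0130, SD, n = 3), and liver 0.237 RPM, as the limits on both require. Distal bins under 0.8 RPM of H3K4me1 in MEFs, ES cells and liver alike are called unmarked here, and held 0.163, 0.152 and 0.103 RPM in the ES libraries. Just inside the MEF limit, bins of 2 to 2.2 RPM averaged 0.229 RPM in iPS cells and 0.335 RPM in NPC H3K27ac, and just outside it, bins of 1.8 to 2 RPM averaged 0.208 and 0.305 RPM. Just inside the ES limit, bins of 0.7 to 0.8 RPM averaged 0.713 RPM in iPS cells, and bins of 0.8 to 0.9 RPM just outside it averaged 0.825 RPM, so the iPS level followed the ES level across that limit. For liver, bins of 0.6 to 0.8 RPM averaged 0.298 RPM in iPS cells and bins of 0.8 to 1 RPM averaged 0.332 RPM.

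**Figure D1:**
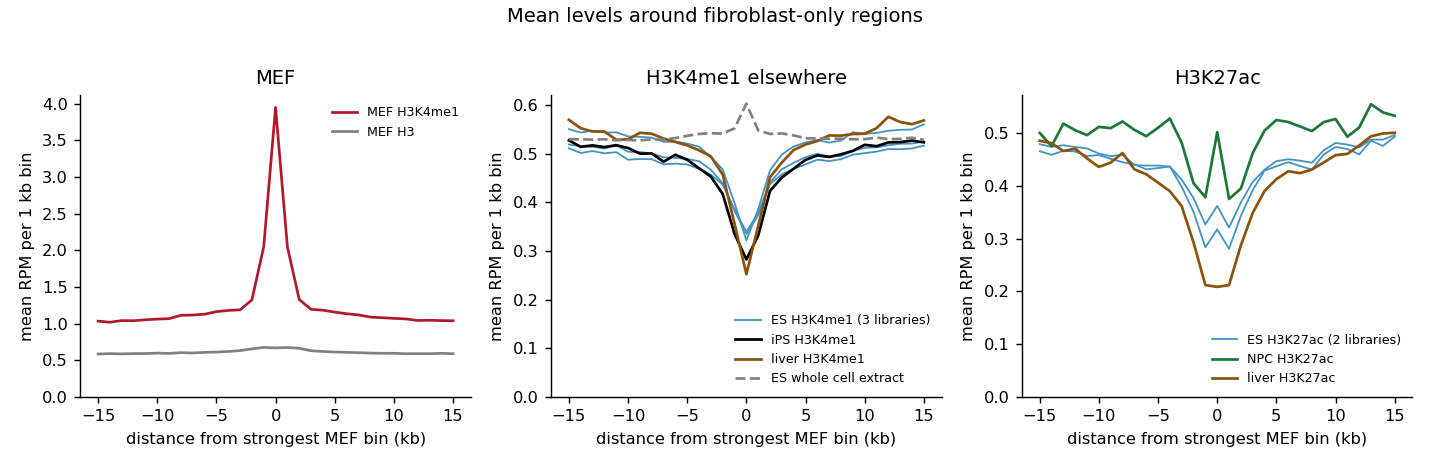
Mean RPM per 1 kb bin at distances of up to 15 kb from the bin of each of the 19632 regions that was strongest in MEF H3K4me1, with MEF libraries on the left, H3K4me1 of other cells and ES whole cell extract in the middle and H3K27ac on the right; each line is 1 library. MEF H3K4me1 peaks at 3.95 RPM, and iPS H3K4me1 dips to 0.283 RPM from 0.528 RPM at 15 kb. NPC H3K27ac is 0.502 RPM in the central bin, between bins of 0.379 and 0.375 RPM. At 15 kb on either side it is 0.501 and 0.533 RPM, so the centre does not stand above its surroundings. Both ES H3K27ac libraries also rise at the centre, to 0.362 RPM between 0.327 and 0.321 RPM and to 0.318 RPM between 0.283 and 0.281 RPM.

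The iPS cells, which descend from MEFs, carried little H3K4me1 at these regions. The iPS library averaged 0.260 RPM per member bin (95% Poisson interval 0.257 to 0.264, from 17940 reads), which was 6.81% of the MEF level. The choice required a MEF level of at least 2 RPM, so that percentage only gives a scale. Unmarked distal bins held 0.103 RPM, so members stood 2.53-fold over them. The WCE library of ES cells, in which no antibody selects any mark, was also higher at members than at unmarked bins, at 0.596 against 0.364 RPM or 1.64-fold. The median region held no iPS read, and 9928 regions (50.6%) had none.

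Around the strongest MEF bin, iPS H3K4me1 fell from 0.528 RPM at 15 kb before it to 0.335 RPM at 1 kb and 0.283 RPM in the bin itself. The ES libraries dipped to 0.339, 0.335 and 0.322 RPM in the same bin, which the limits on ES cells and liver bring about, and liver to 0.252 RPM. ES WCE went the other way, to 0.603 RPM in the central bin from 0.530 RPM at 15 kb. The iPS dip was not particular to fibroblast-only regions. At liver-only regions, under the same ES limit, iPS H3K4me1 went from 0.578 RPM at 15 kb before to 0.269 RPM in the central bin. At regions shared by MEFs and liver it went from 0.713 to 0.378 RPM.

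Since the ES libraries took part in the choice, each was compared with iPS only in regions chosen again without it, after every library had been thinned to the iPS depth of 2.321106 M. Without the first ES library there were 19527 regions, where that library averaged 0.342 RPM (0.338 to 0.347) and iPS 0.261 RPM (0.258 to 0.265). Without the second there were 19382 regions, and the values were 0.328 RPM (0.323 to 0.332) for ES and 0.258 RPM (0.255 to 0.262) for iPS. Without the third there were 20179 regions, with 0.364 RPM (0.360 to 0.369) for ES and 0.283 RPM (0.280 to 0.287) for iPS. iPS was thus below the left-out ES library in each of the 3 comparisons. Set against unmarked bins of the same library the order was mixed. The left-out ES libraries stood 2.04-, 2.13- and 3.19-fold over them and iPS 2.52-, 2.55- and 2.67-fold, so that iPS lay within the range of the ES libraries. MEF H3K4me1 thinned to the same depth stood 48.3- to 48.8-fold over its unmarked bins.

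**Figure D2:**
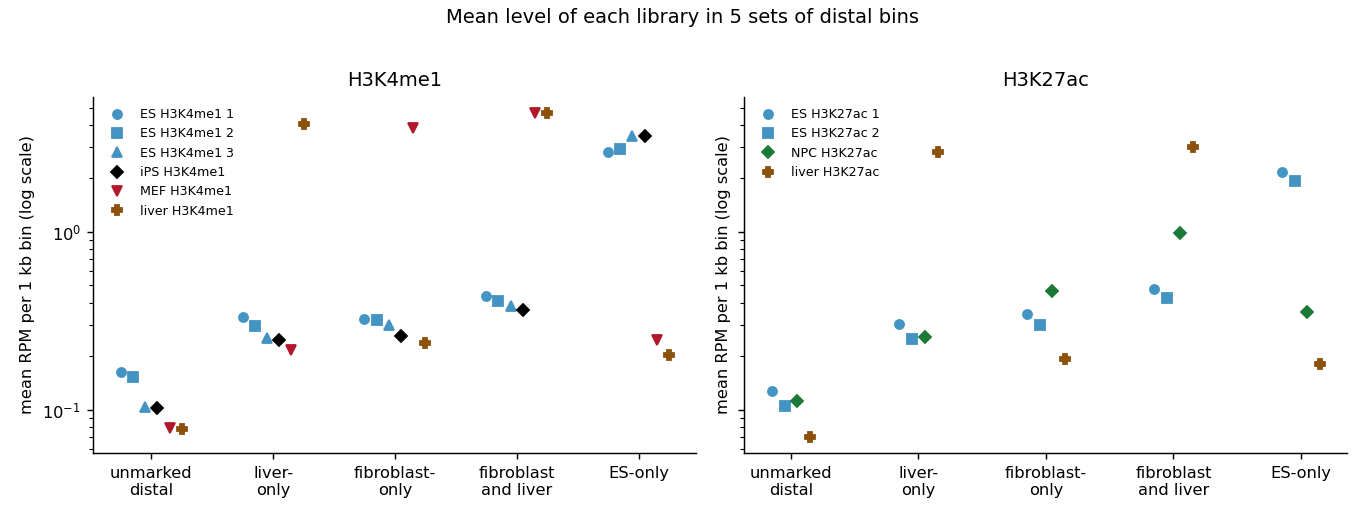
Mean RPM per 1 kb bin (log scale) of each H3K4me1 library (left) and each H3K27ac library (right) in 5 sets of distal bins; each point is 1 library, and counting intervals are mostly smaller than the points. In fibroblast-only bins iPS H3K4me1 stands at 0.260 RPM beside 0.299 to 0.323 RPM in the 3 ES libraries. NPC H3K27ac there is 0.466 RPM, ES H3K27ac 0.344 and 0.299 RPM and liver H3K27ac 0.194 RPM. ES cells and liver had an upper limit on H3K4me1 in the choice and NPCs had none, so NPC H3K27ac is not compared with theirs.

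Liver-only regions, which have the same limit on ES cells and were under 0.8 RPM in MEFs, gave a level to set beside this. iPS H3K4me1 was 0.260 RPM at fibroblast-only and 0.247 RPM at liver-only bins, a difference of 0.0129 RPM (95% interval 0.00734 to 0.0184, normal approximation to the counts). That was 0.356% of the difference in MEF H3K4me1 between the same sets, which was 3.61 RPM. The limits on MEF H3K4me1 that chose the sets bring about that MEF difference, so the percentage only gives a scale. The ES limit chose both sets, so each ES library was again left out in turn, both sets were chosen without it, and it was thinned to the iPS depth. The left-out ES library then differed between the sets by -0.0186, 0.0199 and 0.076 RPM, in the order of the libraries, and iPS beside it by 0.00175, 0.0127 and 0.0292 RPM. iPS H3K4me1 was 0.364 RPM at regions shared by MEFs and liver and 3.44 RPM at ES-only regions, where the ES libraries held 2.80, 2.92 and 3.46 RPM.

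The iPS level rose slightly with the MEF level. In 5 equal groups of the member bins by MEF H3K4me1, from a mean of 2.16 to 7.09 RPM, iPS averaged 0.226, 0.235, 0.251, 0.262 and 0.327 RPM. ES WCE rose as well, from 0.556 to 0.655 RPM, and so did MEF H3, from 0.524 to 0.840 RPM. In bins chosen without it, each left-out ES library was higher in the top than in the bottom group. The first went from 0.324 to 0.384 RPM, the second from 0.294 to 0.391 RPM and the third from 0.312 to 0.457 RPM, and iPS beside them from 0.233 to 0.320, 0.225 to 0.328 and 0.243 to 0.359 RPM. Over the 29691 bins, Spearman's rho with MEF H3K4me1 was 0.083 for iPS, 0.087 to 0.135 for the ES H3K4me1 libraries and 0.108 for ES WCE. These are descriptions across bins, whose mappability and base composition were not measured.

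**Figure D3:**
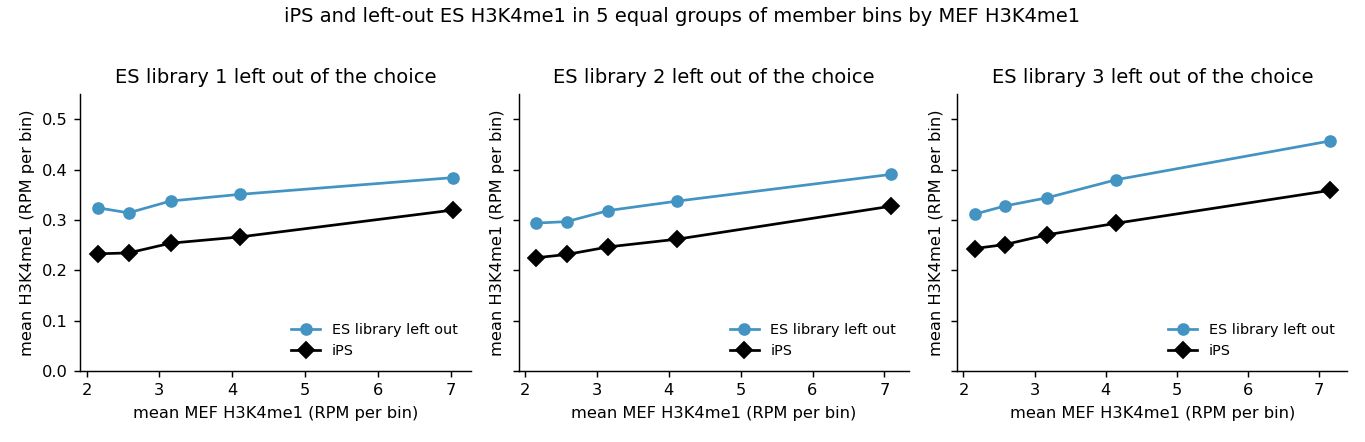
Mean H3K4me1 (RPM per bin) of iPS cells and of the ES library left out of the choice, against mean MEF H3K4me1 in 5 equal groups of the member bins, 1 panel per left-out ES library; all libraries of iPS and ES were thinned to the same number of distinct reads. Both lines rise with the MEF level, and the iPS line lies below the ES line in all 15 pairs of points.

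Few regions had a high iPS level. Of the 19632 regions, 125 (0.637%, 95% Wilson interval 0.535 to 0.758) had at least 2 RPM per kb, the level that chose bins in MEFs, whereas 31.0% of all 85241 distal marked regions did. The share was 0.615% at liver-only regions, 1.16% at those shared by MEFs and liver and 77.7% at ES-only regions. At matched depth, the left-out ES libraries reached that level at 0.784% (0.669 to 0.917), 0.485% (0.397 to 0.593) and 1.77% (1.60 to 1.96) of the regions chosen without them, and iPS at 0.707%, 0.733% and 0.922%, between the lowest and the highest ES share. MEF H3K4me1 thinned alike reached it at 83.6 to 83.7%. The iPS share was 0.322% where every ES library had to be under 0.8 RPM and 0.160% where the ES limit alone was 0.5 RPM. With the liver limit alone at 0.5 RPM it was 0.636%.

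All 125 of these regions were 1 kb wide, where 5 iPS reads are enough. Their MEF level was near that of the rest, at 4.05 against 3.79 RPM per kb. They lay closer to marked chromatin: 34.4% (26.6 to 43.1) had a bin marked in ES cells within 2 kb, against 9.70% of the others, and 54.4% against 32.4% had another MEF-marked bin within 2 kb. Their ES H3K4me1 was also higher, at 0.626, 0.643 and 0.701 RPM per kb in the 3 libraries against 0.324, 0.322 and 0.303 RPM per kb.

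Among the 54 regions with at least 10 iPS reads, the 5 with the highest iPS level reached 1.58 to 4.31 RPM per kb. Coordinates are 1-based and as in the files, whose build the sources used here do not name. The highest, at chr6:72643001-72644000, had 10 iPS reads (4.31 RPM per kb) beside 0.297, 0.630 and 1.44 RPM per kb in the ES libraries and 3.46 RPM per kb in MEFs. One of the bins within 2 kb of it held 4.95 RPM of ES H3K4me1. At chr9:34028001-34031000 there were 13 iPS reads (1.87 RPM per kb), with 0.924, 0.595 and 1.59 RPM per kb in ES cells and 4.70 RPM per kb in MEFs. At chr12:86085001-86088000 there were 12 iPS reads (1.72 RPM per kb), and at chr4:83486001-83489000 there were 11 (1.58 RPM per kb). The widest of the 5, at chr2:125393001-125399000, held 22 iPS reads (1.58 RPM per kb) beside 0.676, 0.647 and 0.851 RPM per kb in ES cells. In all 5 regions the third ES library was the highest of the 3.

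Across regions, H3K4me1 of iPS and ES cells was tested with limma on log2 counts per M over all 85241 regions. No region was called in either direction at a Benjamini-Hochberg adjusted p of 0.05, neither among the 19632 members nor among all regions (0.0% higher and 0.0% lower). At an unadjusted p under 0.05, 632 members (3.22%) were higher and 3216 (16.4%) lower in iPS cells, against 3.6% and 11.1% of all regions. With limma-voom these were 405 (2.06%) and 12 (0.0611%) members, against 3.4% and 0.31% of all regions. The median log2 difference over members was -0.46, against -0.09 over all regions, and 0.19 against 0.18 with limma-voom. ES values chose the members and the test has 2 residual degrees of freedom, so nothing is read from these counts.

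H3K27ac of NPCs, a mark the choice did not use and a cell type it did not include, was low at most fibroblast-only regions and high at a small number. NPC H3K27ac averaged 0.466 RPM per member bin (0.463 to 0.469) against 0.112 RPM in unmarked bins, which is 4.15-fold. ES H3K27ac stood at 0.344 and 0.299 RPM, 2.71- and 2.85-fold over unmarked bins, and liver H3K27ac at 0.194 RPM, 2.76-fold. The choice held H3K4me1 of ES cells and liver low and set no such limit for NPCs, so these levels are not compared with the NPC level. NPC H3K27ac was lower at liver-only (0.255 RPM) and ES-only regions (0.355 RPM), and higher at regions shared by MEFs and liver (0.984 RPM). The median member region held 0.240 RPM per kb and 18.2% of the regions had no NPC read.

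Of the 19632 regions, 701 (3.57%, 3.32 to 3.84) had at least 2 RPM per kb of NPC H3K27ac, against 4.87% of all 85241 distal marked regions. The share at members was thus below that of all marked regions, which mix sets with lower and with higher shares. Among these sets it was 1.06% (0.917 to 1.23) at liver-only, 1.78% (1.60 to 1.98) at ES-only and 11.2% (10.3 to 12.3) at shared MEF and liver regions. The ES H3K27ac libraries reached the same level at 56 and 69 member regions, against 12.5% and 10.9% of all marked regions, and liver H3K27ac at 33, against 12.9%. Members were chosen to be low in H3K4me1 of ES cells and liver, and no such limit was set for NPCs, so these counts are not compared with the NPC count. At 5 RPM per kb there were 176 regions for NPCs, and at 10 RPM per kb 49.

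**Figure D4:**
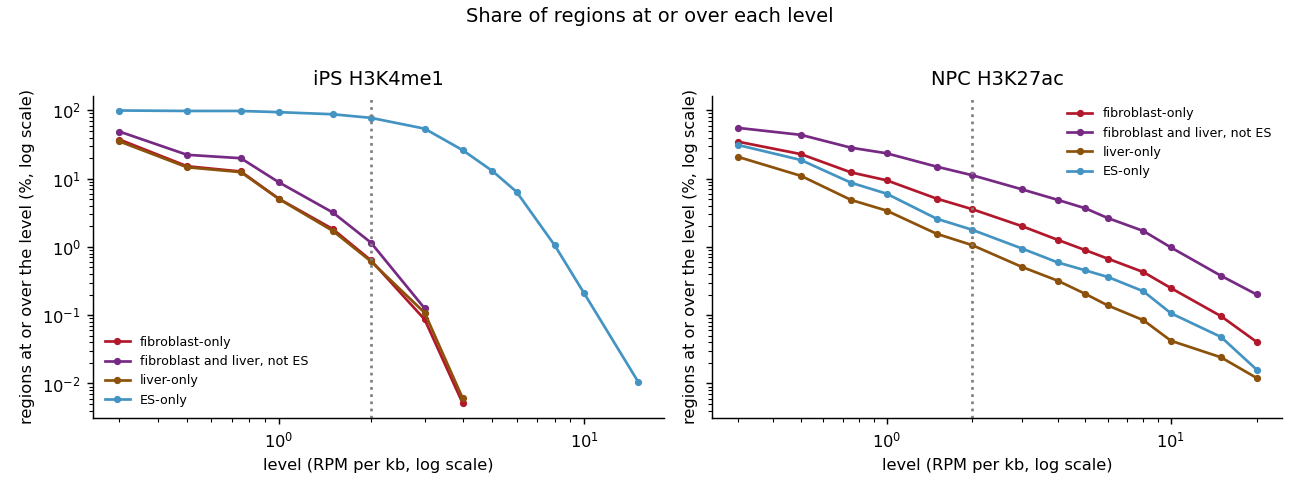
Percent of regions at or over each level (RPM per kb, both axes on log scales) for iPS H3K4me1 (left) and NPC H3K27ac (right) in 4 sets of regions, with a dotted line at 2 RPM per kb. Fibroblast-only and liver-only regions run together for iPS H3K4me1 (0.637% and 0.615% at the dotted line), whereas for NPC H3K27ac fibroblast-only regions lie above liver-only ones (3.57% and 1.06%).

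The 701 regions held 32.3% of the NPC H3K27ac reads in member regions, at a mean of 4.37 RPM per kb against 0.327 RPM per kb in the others. In 536 of them (76.5%), both ES H3K27ac libraries and liver H3K27ac were under 0.8 RPM per kb, as they were in 87.4% of the other members. Their ES H3K27ac averaged 0.462 and 0.431 RPM per kb against 0.339 and 0.293 RPM per kb in the others, and liver H3K27ac 0.260 against 0.193 RPM per kb. MEF H3K4me1 was 4.55 RPM per kb in them and 3.76 in the others, and ES WCE 0.627 and 0.594. iPS H3K4me1 reached 2 RPM per kb in 11 of the 701, where 0.637% of all member regions did. It averaged 0.349 RPM per kb in the 701 and 0.259 in the others. The ES H3K4me1 libraries were higher there too, at 0.367, 0.383 and 0.378 RPM per kb against 0.324, 0.321 and 0.302.

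NPC H3K27ac rose with the MEF H3K4me1 of the same bins. In the 5 groups by MEF level it averaged 0.334, 0.378, 0.413, 0.485 and 0.718 RPM, with Spearman's rho of 0.176 over the 29691 bins. ES H3K27ac rose over the same groups from 0.280 to 0.467 RPM in the first and from 0.235 to 0.429 RPM in the second library, with rho of 0.227 and 0.230, and the p300 libraries had rho of 0.229 and 0.183.

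Rfx1, which binds X-box motifs in DNA, was higher at the acetylated regions, with 1.33 RPM per kb in the 701 regions and 0.375 RPM per kb in the others. Over all member bins it averaged 0.408 RPM, 2.52-fold over unmarked bins. The fold was 1.62 at liver-only, 3.12 at ES-only and 4.03 at shared MEF and liver bins. Rfx1 reached 2 RPM per kb at 4.91% of the member regions, against 6.83% of all 85241 distal marked regions. With 0.705 M distinct reads the Rfx1 library is thin, and 74.8% of the member regions had no Rfx1 read. At least 5 Rfx1 reads lay in 218 regions, of which 44 (20.2%) had NPC H3K27ac of at least 2 RPM per kb. The p300 libraries of ES cells averaged 0.559 and 0.532 RPM per member bin, 2.39- and 2.04-fold over unmarked bins. ES WCE averaged 0.596 RPM, 1.64-fold over them. At liver-only bins, under the same ES limit, the p300 libraries stood 1.99- and 1.78-fold over unmarked bins.

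The region with the most NPC H3K27ac, at chr1:93040001-93041000, held 347 reads (50.005 RPM per kb), against 0.789 and 0.470 RPM per kb in ES cells and 0.978 RPM per kb in liver. MEF H3K4me1 there was 6.30 RPM per kb and no iPS read was found, which allows up to 3 reads. NPCs exceeded ES cells by 5.83 on the log2 scale (SE 0.35, adjusted p = 0.0463 by limma). At chr7:66126001-66127000 there were 183 NPC reads (26.4 RPM per kb) and 21 Rfx1 reads (29.8 RPM per kb). At chr8:125110001-125111000 there were 170 NPC reads (24.5 RPM per kb), with ES H3K27ac of 1.69 and 1.29 RPM per kb. The region at chr18:63680001-63681000 held 154 NPC reads (22.2 RPM per kb). At chr6:114678001-114682000, 608 reads were spread over 4 kb (21.9 RPM per kb), and the excess over ES cells was 5.32 (log2, SE 0.32, adjusted p = 0.0463 by limma). These 5 regions were picked for their NPC level, so their excess over ES cells and the p-values are a description. With a prior count of 0.5 no region was called.

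With limma over all 85241 regions, 228 members (1.16%) were called higher in NPCs than in ES cells and 8 (0.0407%) lower. Of all regions, 1.11% were called higher and 7.11% lower. Liver against ES H3K27ac, which shares the ES libraries, called 318 members (1.62%) higher and 1048 (5.34%) lower. Of all regions, that comparison called 12.5% higher and 19.5% lower. The median log2 difference over members was -0.07 for NPCs, against -0.55 over all regions, and -0.48 for liver, against -0.44. Members were chosen to be low in H3K4me1 of ES cells and liver, whereas all regions include those marked there. Nothing is therefore read from the NPC calls lower, the liver calls or the medians set beside those of all regions. The NPC call count ranged from 0 with a prior count of 0.5 to 1184 of 4218 members after leaving out regions with under 10 reads in every library, a filter that members could pass through a high NPC level, and the test has 1 residual degree of freedom. The count of 228 is near the background share and is not a result about the members.

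The widest fibroblast-only region, at chr2:27820001-27842000, spanned 22 kb with 1918 MEF H3K4me1 reads (6.03 RPM per kb). It held 0.243, 0.334 and 0.254 RPM per kb of H3K4me1 in ES cells, 0.129 RPM per kb in liver and 0.431 RPM per kb (22 reads) in iPS cells. Its NPC H3K27ac was 0.432 RPM per kb, below the 0.609 and 0.593 RPM per kb of the ES libraries. The next widest, at chr6:91192001-91212000, spanned 20 kb with 1934 MEF reads (6.69 RPM per kb), 13 iPS reads (0.280 RPM per kb) and 0.569 RPM per kb of NPC H3K27ac. The other 3 of the 5 widest were chr1:163844001-163861000, chr18:14030001-14046000 and chr2:125117001-125132000, with MEF levels of 3.85, 4.44 and 3.68 RPM per kb and iPS levels of 0.177, 0.0808 and 0.115 RPM per kb.

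Wider regions had a higher MEF level and a slightly lower iPS level than regions of 1 kb. Width comes from joining bins that each passed the MEF limit, so its link with the MEF level is no separate result. The joined bins each passed the ES limit too, and the iPS level followed the ES level across that limit. The link of width with the iPS level is therefore a description only. Regions of 6 to 22 kb averaged 4.97 RPM per kb in MEFs and 0.229 RPM per kb in iPS cells, and regions of 1 kb 3.29 and 0.292 RPM per kb. Between them, regions of 2 kb held 0.238 and regions of 3 to 5 kb 0.246 RPM per kb in iPS cells. NPC H3K27ac was 0.444 RPM per kb in the widest and 0.468 RPM per kb in the narrowest regions.

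Among the 2711 regions of at least 3 kb, the highest MEF level was at chr1:156973001-156980000, with 1651 reads over 7 kb (16.3 RPM per kb). This region also held 236 NPC H3K27ac reads (4.86 RPM per kb) against 0.837 and 1.01 RPM per kb in ES cells. NPCs exceeded ES cells by 2.36 on the log2 scale there (SE 0.21, adjusted p = 0.0464 by limma). It held 4 iPS reads (0.246 RPM per kb). The other 4 of the 5 highest had MEF levels of 12.5 to 13.0 RPM per kb, iPS levels of 0.323 to 0.646 RPM per kb and NPC H3K27ac of 0.252 to 0.865 RPM per kb. At chr2:27606001-27610000, 754 MEF reads (13.0 RPM per kb) stood beside 0.0990, 0.367 and 0.199 RPM per kb in the ES libraries and 3 iPS reads (0.323 RPM per kb). The iPS library thus had 3 to 9 reads in each of these 5 regions. Over all member regions the iPS level was 0.263 RPM per kb, so the first of the 5 was below it and the other 4 were above it.

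Some regions were gathered in small parts of the genome. Of 4935 windows of 500 kb, 1701 held no member bin, the median window held 3 and 64 windows held 40 or more. The window with the most, chr2:27500001-28000000, had 122 member bins in 31 regions, the widest region among them, out of 221 distal MEF-marked bins. Its member bins averaged 6.73 RPM of MEF H3K4me1, 0.233 RPM in iPS cells and 0.315 RPM of NPC H3K27ac. In chr2:125000001-125500000 there were 81 member bins, with 3.74 RPM in MEFs, 0.250 RPM in iPS cells and 0.335 RPM of NPC H3K27ac. In chr6:91000001-91500000 there were 77, with 6.54 RPM in MEFs, 0.302 RPM in iPS cells and 1.24 RPM of NPC H3K27ac. NPC H3K27ac was thus near the same level in both windows of chromosome 2 and higher in that of chromosome 6.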

How the data were processed

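The 20 libraries were mouse ChIP-seq libraries, sequenced on the Solexa platform per the labels' protocols. The authors deposited 1 file per sample that lists reads as signed positions on a chromosome, with neither counts nor normalized values. Aligner and build are not named in the sources used here. The largest positions lay within the lengths of the mm8 assembly and partly beyond those of GRCm38.p6, the only annotation at hand, so no gene or sequence was attached.

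Reads were counted once per position and strand, moved 100 bp toward the fragment centre, binned at 1000 bp and scaled to RPM of distinct reads on the autosomes, X and Y. The levels of regions are RPM per kb over their whole span, intervals of levels are exact Poisson and those of shares Wilson, at 95%. Thinning drew reads without replacement with a fixed seed.

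limma 3.58.1 (R 4.3.3) was fitted to log2 CPM (prior count 2) over 85241 regions, with Benjamini-Hochberg adjustment at 0.05. The single libraries are assumed to vary like the ES libraries. The fit was tested on simulated counts. With a small number of changed regions, sizes and signs were recovered and none was called. A second simulation with many changed regions, added after that was seen, called most of them, but called unchanged regions more often than the nominal rate in the iPS contrast. A call count therefore depends on how much else changes, and a count of 0 does not show that members were unchanged.

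The members, the compared sets and the tests were chosen with earlier results of these data known. The windows just inside and outside the liver limit were widened after a narrower one was seen to hold no bins. Regions were named by rule: the 5 widest, the 5 highest in MEF H3K4me1 with at least 3 kb, the 5 highest in iPS H3K4me1 with at least 10 reads, the 5 highest in NPC H3K27ac and the 3 windows of 500 kb with the most member bins. Alternatives covered repeated reads, the read shift, the bins, each limit, each ES library and the settings of the fit.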

Additional observations from a re-analysis of the deposited data

How the results depend on the processing

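No paired analysis was possible because MEF, iPS, NPC and liver groups hold 1 library each, so they share fewer than 2 replicate numbers with ES cells. The cause of each change below was not tested. The number of regions stayed within 1.5 times of 19632 except with a MEF limit of 3 RPM, where it was 11220. The iPS level, 0.260 RPM per bin in the report, was 0.264 with repeated reads kept, 0.284 with a MEF limit of 3 RPM, 0.180 with ES and liver under 0.5 RPM, 0.210 with every ES library under 0.8 RPM, and 0.258 to 0.283 without 1 ES H3K4me1 library. The share of regions at 2 RPM per kb in iPS, 0.637%, was 0.882%, 0.775%, 0.170%, 0.322% and 0.707 to 0.922% in the same order. The NPC H3K27ac level, 0.466 RPM per bin, was 0.437, 0.555, 0.390 and 0.446 in that order, 0.474 with bins offset by 500 bp, 0.485 with 3 times MEF H3, 0.460 with H3K4me3 under 1 RPM and 0.463 to 0.479 without 1 ES H3K4me1 library. The share at 2 RPM per kb in NPCs, 3.57%, was 3.30% with repeated reads kept, 3.85% with offset bins, 4.68% with a MEF limit of 3 RPM and 2.79% with ES and liver under 0.5 RPM. Chosen after seeing the data, thinning the H3K4me1 libraries of the rule to 6.27 M reads gave 0.271 RPM for iPS, with 0.767% of regions at 2 RPM per kb, and 0.477 RPM for NPCs, and leaving out regions with WCE of 1 RPM per kb or over gave 0.246 and 0.445. Also added then, a limit of 0.5 RPM on ES cells alone gave 0.183 RPM and 0.160% of regions for iPS and 0.426 RPM and 3.22% for NPCs, and on liver alone 0.253 RPM for iPS and 0.430 RPM and 3.20% for NPCs.

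Calls by limma were less stable. Members called higher in NPCs, 228 in the report, were 988 with limma-voom, 0 with a prior count of 0.5, 923 with trimmed mean of M-values scaling and 1184 of 4218 members with at least 10 reads in 1 library, and those called lower, 8, were 20, 0, 16 and 410. The members' shares called higher were 5.03, 0.0, 4.70 and 28.1%, against 4.55, 0.0, 4.25 and 9.52% of all regions tested, and lower 0.102, 0.0, 0.0815 and 9.72%, against 11.9, 0.0, 8.78 and 43.4%. The filter on reads admits members through the library in which they are high, so its share is no support. Members were chosen to be low in ES H3K4me1, so their shares called lower are no result either. At a prior count of 0.5 with limma, 1578 members (8.04%) were higher and 2255 (11.5%) lower at an unadjusted p under 0.05, against 6.50% and 32.4% of all regions. The median log2 difference over members, -0.07, turned to 0.31 with that scaling, which moved the median of all regions from -0.55 to -0.19, to 0.13 with the filter on reads, and to between -0.12 and 0.022 without 1 ES H3K27ac library. For liver, 187 members were called higher with the filter against 318, and 76 with limma-voom and 2306 with a prior count of 0.5 lower against 1048. Over all regions 27.4% were higher with the filter, and 9354 and 19723 of 85241 lower in the latter 2 settings. The liver median of -0.48 was -0.82 with a prior count of 0.5 and -0.90 with the filter. For iPS, limma called 0 members in either direction in each of the settings run, and the median log2 difference was 0.19 with limma-voom and -0.87 with a prior count of 0.5 against -0.46. The iPS library of 2.32 M distinct reads limits the iPS values, since 50.6% of the regions hold no read.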
